A study of Mus musculus with 2 samples.

Results

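The miR-34/449 family comprises 6 mouse microRNA (miRNA) genes at 3 loci: Mir34a alone on chromosome 4, Mir34b and Mir34c together on chromosome 9, and Mir449a, Mir449b and Mir449c together on chromosome 13. The members were taken by name from the 1973 miRNA genes counted in each library, and all 6 have an entry. The libraries come from hearts of mouse embryos of strain B6NCrl at embryonic day 14.5, a single group of 2 biological replicates with no treatment named, collected on 15 and 17 July 2014. The labels call each sample 1 heart but also give its sex as mixed, so the number of embryos behind a library is unsettled. There is no second group, so the series gives the level of each member and its spread over 2 libraries. In bulk tissue, fewer cells holding a miRNA and less of it per cell cannot be told apart.

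miRNAs are short RNAs cut from hairpin precursors, and they repress messenger RNAs that pair with the seed, bases 2 to 8 of the mature strand. The miR-34 genes are direct transcriptional targets of the tumour suppressor p53, and miR-34a is known in the heart for rising with age and injury. The Mir34b/c and Mir449 loci are known for high expression in multiciliated epithelia of airway, brain ventricles and reproductive tract, and in male germ cells. The members can act on shared targets because they carry the same seed.

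Sequences were matched by symbol to the RefSeq table for GRCm38.p6, the assembly of mm10, and 5 of the 6 genes matched, all but Mir449b. The mature 5p strands are shown because they carry the property that defines the family, with bases 2 to 8 in capitals.
miR-34a-5p: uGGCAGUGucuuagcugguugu
miR-34b-5p: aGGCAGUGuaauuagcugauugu
miR-449a-5p: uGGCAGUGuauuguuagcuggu
miR-449c-5p: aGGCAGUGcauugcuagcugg
These 4 are the only ones of 1738 mature miRNAs in that table with GGCAGUG at bases 2 to 8, and miR-34c-5p is not among the 1738. Outside the seed they differed: aligned end to end, miR-34a-5p and miR-34b-5p were identical at 19 of 23 columns (82.6%), miR-449a-5p and miR-449c-5p at 18 of 22 (81.8%), and miR-34a-5p and miR-449c-5p at 15 of 22 (68.2%).

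The hairpins of the chromosome 9 pair are shown because these neighbours were both detected and differed widely in counts. GGCAGUG is in capitals in the hairpins of Mir34c (chr9:51103034-51103110, minus strand) and Mir34b (chr9:51103562-51103645, minus strand).
Mir34c: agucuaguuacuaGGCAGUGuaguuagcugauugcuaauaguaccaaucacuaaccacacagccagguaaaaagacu
Mir34b: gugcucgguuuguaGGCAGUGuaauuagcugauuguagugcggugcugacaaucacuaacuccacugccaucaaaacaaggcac
All 5 matched family hairpins hold these 7 letters, as do 17 of all 1005 hairpins in the table (1.69%), read on the given strand only. The opposite arms form another pair: miR-34b-3p and miR-34c-3p share AUCACUA at bases 2 to 8, while the 3p strands of Mir34a, Mir449a and Mir449c each have a different run there. A gene's count pools both arms, so it does not show which mature strand was sequenced.

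Exact sequence identity within the family stops short of a read length. The longest exact stretch that Mir34b and Mir34c share is 11 bases. In the hairpins printed above, another exact stretch of the same length follows it after a single differing base. Near-identity of this pair therefore reaches a read length. No aligner is named, so it is unknown whether mismatches were allowed. Whether reads of Mir34b and Mir34c were assigned to the wrong neighbour was not tested. Against all other annotated miRNA hairpins, on either strand, the longest shared stretch was 11 bases for Mir34b and Mir34c, 12 for Mir34a, Mir449b and Mir449c, and 14 for Mir449a, which shares it with Mir679. None of the 6 shares an exact stretch of 18 bases with another annotated hairpin. At 18 bases Mir449b also matches annotated transcripts of 4 other genes, and the other members match none. The genome sequence itself was not searched.

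Replicate 1 held 4327424 and replicate 2 held 3839984 reads on miRNA genes in the strand column used, or 53.1% and 52.8% of all reads. Levels are counts scaled to these reads (CPM), and 3 counts correspond to 0.693 CPM in replicate 1 and 0.781 in replicate 2. Reads that mapped to several places, 30.6% and 30.1% of all reads, are in no gene count. Of the heart muscle markers, the myosin-hosted Mir208b (66314 and 66822 CPM), Mir208a (6542 and 9382 CPM) and Mir499 (2896 and 3149 CPM) were high. Mir1a-1, with 13 and 10 counts, Mir133a-1, with 12 in each library, and Mir133a-2, with 2 and 5, were low. These 3 share 18 bases with another hairpin, so their levels are uncertain, and Mir1a-2 was not analysed here. Detection required 10 or more counts in replicate 1 and in replicate 2.

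The family was present at a moderate level and was carried by Mir34c and Mir34a. The 6 genes summed to 3166 counts in replicate 1 and 2970 in replicate 2, or 753 ± 29.6 CPM (SD, n = 2), which is 0.0753% ± 0.00296 of the assigned reads. Mir34c gave 58.8% ± 0.306 of the family counts and Mir34a gave 34.6% ± 2.70. Mir449a gave 3.82% ± 2.36 and Mir34b gave 2.71% ± 0.0300. Detected members numbered 4 of 6, against 17.1% of all 1973 genes, and Mir449b and Mir449c were not detected. No read of any member lay on the opposite strand in either library.

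**Figure D1:**
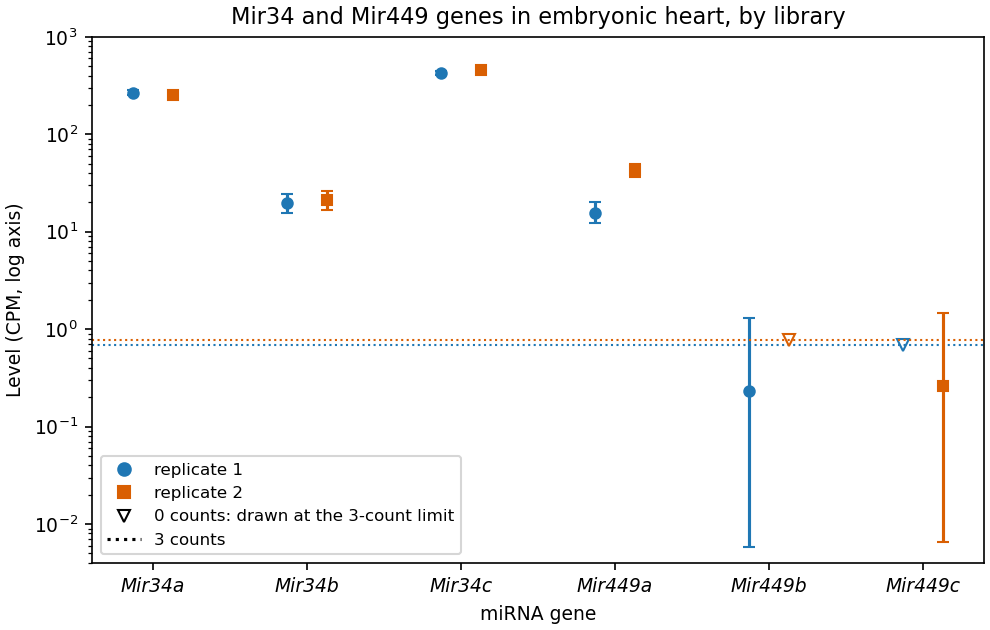
Level of each family gene in CPM on a log axis, with circles for replicate 1, squares for replicate 2 and bars for exact 95% Poisson intervals of the counts. Open triangles mark a count of 0, drawn at the limit of 3 counts per library that the dotted lines show, and Mir449a is the member whose libraries separate, at 15.7 and 42.4 CPM.

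Mir34c was the most abundant member. It had 1855 counts in replicate 1 and 1753 in replicate 2, or 429 CPM (95% Poisson interval 409 to 449) and 457 CPM (435 to 478). It ranked 100 and 104 of 1973 genes by count, and its mean was 443 ± 19.7 CPM. Of these 1973 genes, 337 were detected and 1285 had 0 counts in both libraries. The libraries' intervals overlapped, with a ratio of replicate 2 to replicate 1 of 1.06 (95% counting interval 0.997 to 1.14).

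Mir34a lies at chr4:150068454-150068555 on the plus strand (mm10), outside protein-coding genes, with Gpr157 18.8 kb downstream on the same strand. Its last 17 bases overlap the exon of Gm37795, a transcript of unclear status. Mir34a had 1157 counts in replicate 1 and 972 in replicate 2, or 267 CPM (252 to 283) and 253 CPM (237 to 270), with a mean of 260 ± 10.1 CPM. The libraries again overlapped, at a ratio of 0.947 (0.868 to 1.03). Mir34c exceeded Mir34a in each library, 1.60-fold (1.49 to 1.73) in replicate 1 and 1.80-fold (1.67 to 1.95) in replicate 2. Both intervals lie above 1, and the lower library of Mir34c lay above the higher library of Mir34a. Between the libraries the ratio moved by 1.12-fold (exact conditional interval 1.01 to 1.25).

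Mir34b and Mir34c lie 451 bases apart on the minus strand of chromosome 9. Both fall in an intron of a transcript of Btg4, which runs on the opposite strand, so Btg4 does not host them. Mir34b had 85 counts in replicate 1 and 81 in replicate 2, or 19.6 CPM (15.7 to 24.3) and 21.1 CPM (16.8 to 26.2), with a mean of 20.4 ± 1.03 CPM. The libraries did not separate, at a ratio of 1.07 (0.782 to 1.47).

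The imbalance in reads between these neighbours was wide and alike in the libraries. Mir34c stood 21.8-fold (17.6 to 27.5) above Mir34b in replicate 1 and 21.6-fold (17.3 to 27.4) in replicate 2, a mean ratio of 21.7 ± 0.128 and a log2(CPM + 1) difference of 4.38 ± 0.01. The ratio of replicate 2 to that of replicate 1 was 0.992 (0.717 to 1.37). Mir34a, from its own locus, also lay above Mir34b, 13.6-fold (10.9 to 17.2) and 12.0-fold (9.56 to 15.2).

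**Figure D2:**
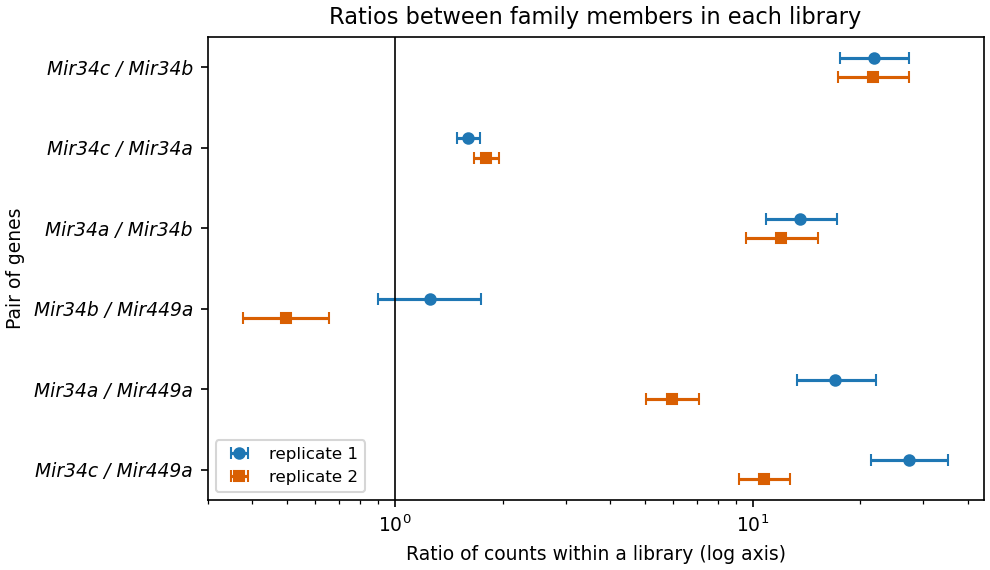
Ratio of counts between pairs of family genes within each library, on a log axis with a line at 1, with circles for replicate 1, squares for replicate 2 and bars for exact 95% intervals of counting error. The Mir34c to Mir34b ratio is nearly the same in the libraries, at 21.8 and 21.6, while the 3 ratios to Mir449a are all lower in replicate 2.

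The Mir449 genes lie on the plus strand in introns of Cdc20b, which runs in the same direction, in each of the 5 annotated transcripts that cover them. Mir449c comes first (chr13:113035983-113036091), then Mir449b 1.33 kb on (chr13:113037419-113037498), then Mir449a after 35 bases more (chr13:113037534-113037624). Cdc20b, its miRNAs, and the genes Mcidas and Ccno, which act in the formation of multiciliated cells, sit in a row on the same strand. Mcidas ends 35.6 kb and Ccno 45.2 kb before Mir449c.

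Mir449a was the detected member of this locus. It had 68 counts in replicate 1 and 163 in replicate 2, or 15.7 CPM (12.2 to 19.9) and 42.4 CPM (36.2 to 49.5), with a mean of 29.1 ± 18.9 CPM. Replicate 2 was the higher, 2.70-fold (2.02 to 3.64), and the libraries' intervals did not overlap.

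Mir449b and Mir449c were at the limit of counting. Mir449b had 1 count in replicate 1 and 0 in replicate 2, and Mir449c had 0 and 1. Taking 3 counts as the limit, a count of 0 allows up to 0.781 CPM for Mir449b in replicate 2 and 0.693 CPM for Mir449c in replicate 1. Over both libraries Mir449a had 231 counts against 1 for each of the others, a ratio of 231 with a counting interval of 41.1 to 9163. Mir449a lay at the 3′ end of its group and Mir34c at the 3′ end of its pair, and each was the most abundant of its locus.

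**Figure D3:**
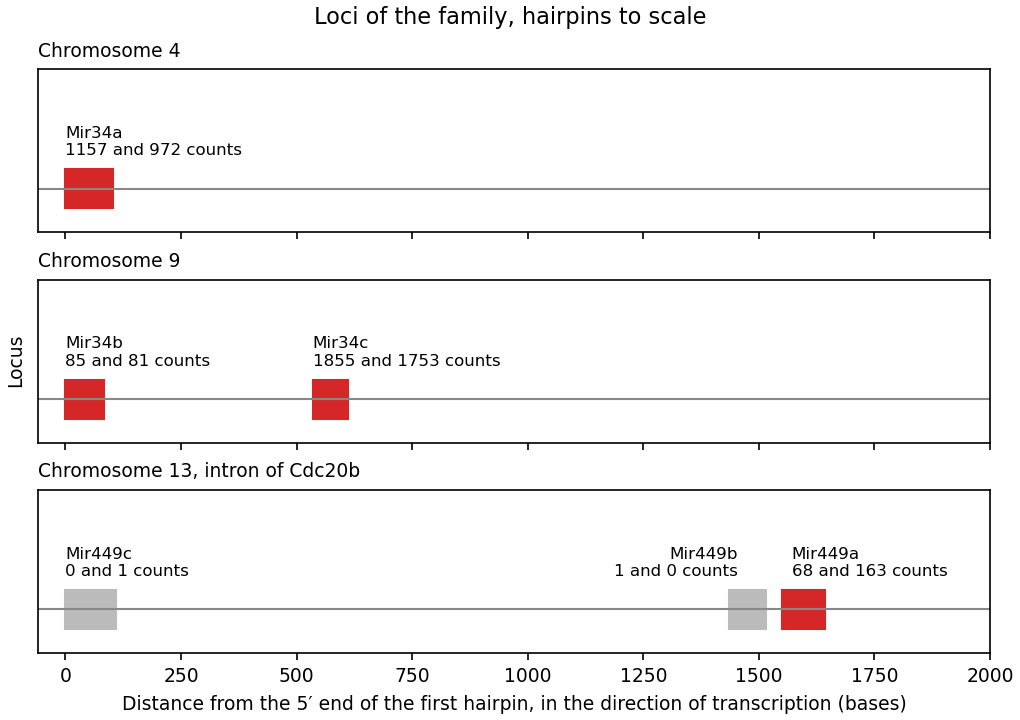
The 3 loci with hairpins drawn to scale, the x axis giving the distance in bases from the 5′ end of the first hairpin in the direction of transcription, and the counts of replicates 1 and 2 above each. Detected genes are red and undetected ones grey, and the last hairpin of the lower 2 loci holds most of the counts of its locus.

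The order of levels was Mir34c, Mir34a, then Mir449a and Mir34b, then Mir449b and Mir449c. Mir449a and Mir34b, the neighbours in the middle, did not differ beyond their spread. Mir34b was 1.25-fold (0.898 to 1.75) the level of Mir449a in replicate 1 and 0.497-fold (0.376 to 0.653) in replicate 2. The last 2 cannot be ordered at this depth.

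Mir449a and the other detected members differed in how far the libraries lay apart. The 3 miR-34 genes together were at 716 CPM (691 to 741) and 731 CPM (704 to 758), a ratio of 1.02 (0.970 to 1.07), while the Mir449 locus was at 15.9 (12.4 to 20.2) and 42.7 CPM (36.4 to 49.8). The locus gave 2.18% (Clopper-Pearson interval 1.70 to 2.75) of the family counts in replicate 1 and 5.52% (4.73 to 6.40) in replicate 2. The ratio of Mir34a to Mir449a, which no scaling affects, was 17.0 (13.3 to 22.1) and then 5.96 (5.05 to 7.08), a change of 0.351-fold (0.257 to 0.474). The same change was 0.394-fold (0.290 to 0.531) against Mir34c and 0.399-fold (0.257 to 0.615) against Mir34b. These intervals cover counting error in 1 library against another and do not compare conditions.

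Of the 4 detected members 1, Mir449a, was over 2-fold higher in replicate 2, against 4.45% of the 337 detected genes. None was over 2-fold lower, against 0.297%. Over all detected genes the median absolute difference between libraries was 0.22 on the log2(CPM + 1) scale, and the members differed by -0.08 (Mir34a), 0.09 (Mir34c), 0.10 (Mir34b) and 1.38 (Mir449a). Median-of-ratios scaling, which shifts every log2 ratio by -0.11, turned the sign for Mir34b and Mir34c and left Mir449a 2.50-fold higher. Only 6 of the 337 had a ratio at least as high as that of Mir449a, itself included. The other 5, named after their values were seen, were Mir205 at 7.95-fold, Mir137 at 6.50-fold, Mir7b at 4.23-fold, Mir141 at 3.61-fold and Mir200c at 3.36-fold. Mir205, Mir141 and Mir200c are epithelial miRNAs, and Mir137 and Mir7b are known from neural and endocrine cells. The neuronal list did not move as 1 group: of 8 measured genes 3 were detected, with Mir137 higher in replicate 2, and Mir128-1 (0.895-fold) and Mir128-2 (0.662-fold) lower. The other 5, copies of Mir124a and Mir9, had 0 counts in both libraries. All of the 8 but Mir137 share 18 bases with another hairpin, so their levels are uncertain.

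Markers of epithelium, like Mir449a, were higher in replicate 2. With 2 libraries this is a single difference, so it does not show that they vary together. The list of 12 epithelial miRNAs (the miR-200 and miR-183 groups, Mir203, Mir205, Mir31 and Mir375) was detected in full, against 17.1% of all genes, and held 938 CPM in sum in replicate 1 against 1561 CPM in replicate 2. Each of the 12 was higher in the latter, with ratios from 1.14 (Mir31) to 7.95 (Mir205) and a median of 2.10. Of all detected genes, 59.6% were higher in replicate 2 with CPM, 53.4% with TMM and 44.5% with median-of-ratios scaling, while 12 of 12 in the list were higher with each. In the list 8 of 12 were over 2-fold higher with CPM, against 4.45% of detected genes. The list's count was 6 with TMM, against 3.56%, and 5 with median-of-ratios scaling, against 2.97%. The miR-200 and miR-183 genes lie in clusters, so the 12 are not 12 independent markers and these counts overstate their number. Mir429 (292 and 471 CPM), Mir203 (222 and 263 CPM) and Mir31 (174 and 199 CPM) were its most abundant members. The level of Mir449a was 1.67% of the list's sum in replicate 1 and 2.72% in replicate 2. The 3 red blood cell markers were lower in replicate 2, Mir451a at 0.381-fold (1090 and 415 CPM), Mir144 at 0.782-fold and Mir486 at 0.823-fold, and Mir451a and Mir486 share 18 bases with another hairpin. Of the white blood cell markers, Mir155 (0.736-fold) and Mir223 (0.840-fold) were lower in replicate 2 and Mir150 (1.18-fold) was higher. The smooth muscle pair Mir143 and Mir145a was higher in replicate 2, by 1.35-fold and 1.19-fold. The endothelial Mir126a, which shares 18 bases with another hairpin, stood at 1.07-fold. Shared bases were sought on both strands, so a hairpin lying opposite at the same place also counts. Heart muscle markers summed to 75758 and 79360 CPM. The part of epithelial RNA in the level of Mir449a was not tested.

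**Figure D4:**
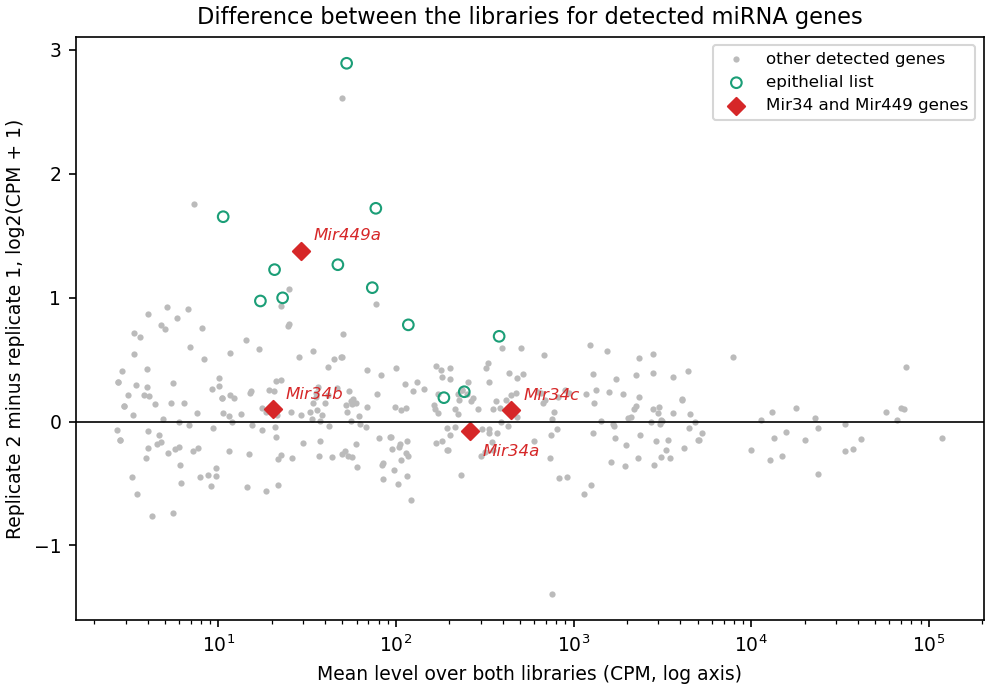
Difference between the libraries (replicate 2 minus replicate 1, log2(CPM + 1)) against the mean level in CPM on a log axis, for the 337 detected genes. Red diamonds are the 4 detected family genes and green circles the 12 epithelial miRNAs, and Mir449a, at 1.38, lies among the epithelial genes while the miR-34 genes lie near 0.

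The genes nearest to each member in level over the 2 libraries, by Euclidean distance in log2(CPM + 1), were found next. Mir34a lay nearest to Mir362 (distance 0.05), Mir224 (0.18) and Mir24-2 (0.21). Mir34c lay nearest to Mir134 (0.09), Mir467c (0.11) and Mir421 (0.15), and Mir34b to Mir218-1, Mir293 and Mir129-2, each at 0.11. Mir449a had no gene as close. Its nearest was Mir206, a skeletal muscle miRNA with 15.7 and 34.1 CPM (distance 0.31), followed by Mir200a with 15.0 and 31.0 CPM (0.45) and Mir338 (0.45). These distances describe 2 points per gene. Mir24-2, Mir467c, Mir218-1 and Mir129-2 share 18 bases with another hairpin, so their levels are uncertain. Mir338 shares 18 bases with Mir3065, counting both strands. Whether Mir3065 lies opposite Mir338 at the same place was not checked, so the level of Mir338 may be uncertain. No other annotated miRNA gene lies within 100 kb of a family member.

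Other miRNAs tied to p53 were held beside the family. Mir192, Mir194-1, Mir194-2, Mir215 and Mir107 are transcribed under p53, and p53 aids the processing of Mir143, Mir145a and miR-16. Of 10 listed genes 9 were measured and all 9 were detected, against 17.1% of all genes, at mean levels from 43.8 CPM (Mir194-1) to 74458 CPM (Mir143). Mir215 (302 CPM) lay between Mir34a and Mir34c in mean level, and Mir192 (54.6 CPM), Mir194-2 (52.2 CPM) and Mir194-1 lay below both. Mir145a (1338 CPM), Mir16-1 (1622 CPM), Mir15a (2104 CPM) and Mir107 (3117 CPM) lay above all members of the family. Between the libraries 6 of the 9 were higher in replicate 2, against 59.6% of detected genes. With TMM and with median-of-ratios scaling 4 of 9 were higher, against 53.4% and 44.5%, so these counts lie near those of all genes. The median ratio was 1.02, with a range of 0.795 to 1.35, and 0 of 9 were over 2-fold higher or lower, against 4.45% and 0.297% of detected genes. Mir194-1, Mir194-2, Mir107 and Mir16-1 share 18 bases with another hairpin, so their levels are uncertain.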

How the data were processed

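The 2 small RNA libraries of embryonic heart were analysed from 1 read count table each. Per the deposited descriptions, the authors' counts refer to mm10 and GENCODE M4, with no pooling. The sources used here name no aligner or counting program. The deposited counts are whole numbers for both strands together and for each strand. The first strand-specific column was used, and the 4 lines naming no gene were left out of totals. Names and positions came from GENCODE M21 on the same assembly (1894 of 1973 identifiers named). The members and lists were chosen with earlier results of these data known. The text names all members, the 3 genes nearest in level to each detected member, and list members.

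Counts were scaled to CPM, with 1 CPM added before taking log2. Intervals (95%, exact Poisson, exact binomial or Clopper-Pearson) and the limits set by 3 counts cover counting error only. PCR copies cannot be told apart without molecular identifiers, so the intervals may be too narrow even for that error. With 1 group no test between groups was made. The labels number the libraries as biological replicates, and their spread includes the collection day. Levels were compared as reads per gene, undivided by length, since the listed mature miRNAs of the family have 21 to 23 bases. Ratios between genes are thus ratios of reads. How well each miRNA was captured in the libraries was not measured, and likeness between replicates does not show it. The calculation of ratio intervals was checked on simulated Poisson counts with known ratios, 200 genes being changed. Such counts hold counting error only, so the check does not cover PCR copies or the spread between replicates. Tools were Python 3.11.15, numpy 2.4.6, pandas 2.3.3, scipy 1.17.1, edgeR 4.0.16 (TMM) and DESeq2 1.42.0 (size factors) in R 4.3.3. The alternatives were other scalings, strand columns, count minimums and pseudocounts, a thinned library, each replicate left out and, added after the data were seen, counts per base of hairpin.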

Additional observations from a re-analysis of the deposited data

How the results depend on the processing

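The Mir449a ratio between libraries stayed from 2.50 (median-of-ratios) to 2.71 (unstranded column), and 4 of 6 members were detected at each minimum tried from 1 to 20 counts, with the thinned library and with either replicate left out. Median-of-ratios scaling shifted all log2 ratios by -0.11, which turned the family ratio from 1.06 to 0.977 and moved that of Mir34c from 1.06 to 0.984. Without the most abundant gene in the total, Mir34a, Mir34b, Mir34c and the family stood at 296, 23.1, 503 and 855 CPM, and scaled to all reads at 138, 10.8, 234 and 398 CPM. With the unstranded column, and with both strand columns added, Mir34a, Mir34c and the family stood at 248, 422 and 718 CPM. Per base of hairpin the ratio of Mir34c was 23.7 to Mir34b and 2.26 to Mir34a. The log2 difference of Mir34c and Mir34b was 4.44 with a pseudocount of 0.1 CPM and 3.90 with 10 CPM. The median absolute log2 ratio of all genes was 0 without a filter on low counts. With 1 replicate left out, the level of Mir34a ranged from 253 to 267 CPM, Mir34b from 19.6 to 21.1, Mir34c from 429 to 457, Mir449a from 15.7 to 42.4 and the family from 732 to 773. The ratio of Mir34a to Mir449a ranged from 5.96 to 17.0 and that of the miR-34 genes to the Mir449 locus from 17.1 to 44.9, so each rests on which library is used. No paired analysis was possible because there is 1 group. At this depth Mir449b and Mir449c cannot be told from each other or from 0.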
